A study of Mus musculus with 16 samples.

Results

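Brachiocephalic arteries of mice that lacked both Apoe and Mif were compared with those of mice that lacked only Apoe, after 42 weeks of Western-type diet. The comparison used 8 of the 16 libraries of the series, 4 labelled Apoe-/-Mif-/- and 4 labelled Apoe-/-, and 1 separate mouse was named for each. The remaining 8 libraries came from the same genotypes after 24 weeks of diet. All mice were female, and all of them, the controls included, lacked Apoe, which encodes the lipoprotein ligand that clears cholesterol-rich remnants from blood. They ate chow until 6 weeks of age and from then on a diet of 21.2% fat with 0.2% cholesterol, as the labels' protocols state. Frozen sections 5 µm thick were scraped whole from slides, 3 to 4 sections were pooled per mouse, and Smart-seq2 amplification started from 1 ng of polyadenylated RNA. The labels give neither the construction of the 2 null alleles nor the mouse strain. By its title the series concerns aging and atheroprotection when Mif is missing.

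Macrophage migration inhibitory factor is a secreted protein that acts like a chemokine. It binds CD74, which is also the invariant chain of MHC class II molecules, and the chemokine receptors CXCR2, CXCR4 and ACKR3, and it draws monocytes and lymphocytes into inflamed vessel walls. In advanced plaques, macrophages loaded with lipid become foam cells, smooth muscle cells lose contractile proteins, and some cells take on features of cartilage or bone.

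The 8 libraries held 378066 to 4586280 counts. Apoe-/- libraries averaged 2616890 ± 1864260 counts (SD, n = 4) and Apoe-/-Mif-/- libraries 2699820 ± 1194910. Library 1 of the Apoe-/- mice (378066 counts) and library 2 of the Apoe-/-Mif-/- mice (964628 counts) were the 2 shallowest. Levels are given in CPM, counts scaled to a common library size with edgeR's TMM factors, always for libraries 1 to 4 of a genotype in that order. A level of 3 counts corresponded to 6.32 CPM in the shallowest of the 8 libraries and to 0.886 CPM in the deepest. The tissue label was checked with 14 markers of smooth muscle, endothelium, macrophages and fibroblasts. All had counts in all 8 libraries except Tagln, a smooth muscle gene, which had none in 1 of them and at most 46.4 CPM. The endothelial gene Cdh5 and the macrophage gene Adgre1 had as few as 1 and 4 counts in a library. Acta2, smooth muscle actin, ran from 2343 to 12016 CPM. Each genotype filled adjacent positions of plate row B, so genotype and position in the row cannot be told apart.

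Mif itself was examined first. Levels of Mif were 23.2, 301, 185 and 130.4 CPM with Mif and 14.4, 11.1, 2.39 and 9.46 CPM without it. Every Apoe-/-Mif-/- library lay below every Apoe-/- library, and the mean was 17.1-fold lower (two-sided exact permutation p = 0.0286, which is the lowest value reachable with these group sizes). The lowest level with Mif, 23.2 CPM in the shallow Apoe-/- library 1, rested on 11 counts. The highest without Mif, 14.4 CPM in Apoe-/-Mif-/- library 1, rested on 28. The Apoe-/-Mif-/- libraries still held 68 Mif counts in all, and where these reads came from was not tested. In the fit across all genes Mif had a log2 difference of -4.11 ± 1.22 (SE) and did not pass (edgeR adjusted p = 0.176). Apoe stood at 148, 4.73, 32.2 and 1127 CPM in the arteries with Mif and at 6.68, 29.2, 194 and 2.58 CPM in those without. The Apoe levels overlapped (two-sided exact permutation p = 0.514). Apoe reads were therefore present in all 8 libraries of mice labelled as lacking the gene, and the highest value was in Apoe-/- library 4.

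At an adjusted p under 0.05, edgeR's quasi-likelihood test called none of 10634 genes higher (0%) and none lower (0%) without Mif at 42 weeks. At an unadjusted p under 0.05 there were 985 genes higher (9.26%) and 850 lower (7.99%). DESeq2, a different count model, called 545 higher (5.13%) and 380 lower (3.57%), and limma on weighted counts (voom) or on the deposited variance-stabilised values called none. DESeq2 gave no adjusted p for 1677 of the 10634 genes, which count as not called in these shares. A fit of only the 8 libraries at 42 weeks called 24 genes higher and 1, the predicted gene Gm3896, lower. The smallest edgeR adjusted p was 0.176, shared by 398 genes. Of the tested genes, 124 had all 4 values higher without Mif (1.17%) and 110 had all 4 lower (1.03%). Of these 234 genes DESeq2 called 62.0%, and they made up 15.7% of its 925 calls. Single libraries weighed heavily: 5517 genes (51.9%) had over 50% of the summed CPM of the 8 libraries in 1 library. The median log2 difference over all tested genes was 0.09 and 51.8% of genes lay above 0. Scaling by DESeq2's size factors moved the median to 0.29 (55.5% above 0) and scaling by library totals to -0.08 (48.3% above 0).

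Because no gene passed the edgeR test at 42 weeks, the genes below are described by their levels. A ranking took the genes whose 4 levels in one genotype all exceeded the 4 in the other, had at least 10 counts in every library of the higher genotype, and drew at most 60% of that genotype's summed CPM from 1 library. 40 genes met it in the higher direction (0.376% of genes tested) and 53 in the lower (0.498%), and the 12 with the smallest p in each direction are shown in the dot plot of ranked genes. The separation of the genotypes chose these genes and is no finding about them. The gene lists below were chosen with earlier results of these data known. Their shares beside those of all genes therefore describe the lists and test nothing.

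**Figure D1:**
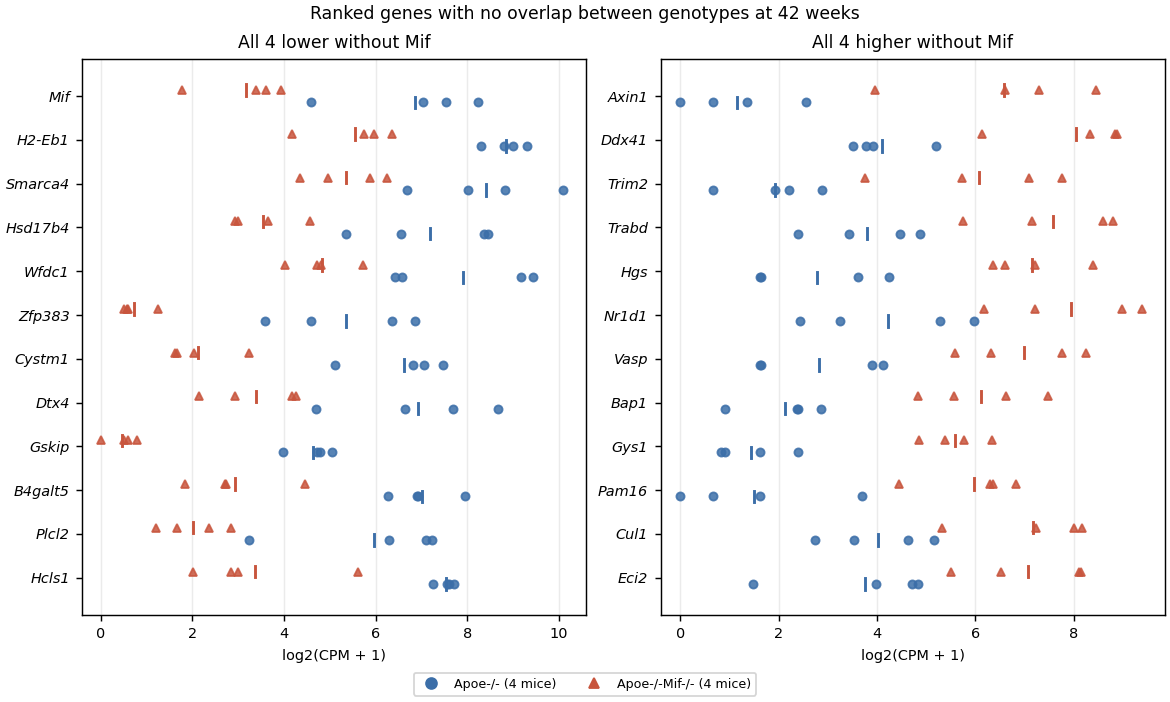
Level of each ranked gene on the x axis as log2(CPM + 1) in the 4 Apoe-/- libraries (circles) and the 4 Apoe-/-Mif-/- libraries (triangles) after 42 weeks, with short bars at the means. The genotypes do not overlap for any gene shown, as the ranking required: Mif reached at most 14.4 CPM without Mif and at least 23.2 CPM with it.

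Among the ranked genes that were lower, Mif included, the smallest p belonged to H2-Eb1. This gene encodes the beta chain of the MHC class II molecule I-E, a surface protein that presents peptides to helper T cells. H2-Eb1 was at 632, 444, 514 and 317 CPM in the Apoe-/- libraries and at 52.4, 80.8, 61.3 and 17.2 CPM in those without Mif. The highest level without Mif was far below the lowest with Mif. The mean was 9.01-fold lower, with a log2 difference of -3.17 ± 0.81 (SE) (edgeR adjusted p = 0.176, DESeq2 adjusted p = 0.00578). In these bulk sections, fewer cells of a type and less RNA per cell cannot be told apart, here and for every gene below.

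The promoters of 2 class II genes are shown because both hold the letters CTGATTGG, the core of the Y box that class II promoters share. The genotypes were separated for H2-Eb1 and overlapped for H2-Aa, and a difference between the 2 genes was not tested. The promoters are RefSeq sequences of build GRCm38.p6 from 250 bases before to 50 after the start site. They are written 5′ to 3′ on the gene's strand, and the capitals mark the motif. H2-Eb1 lies on the plus strand (chr17:34305617-34305916) and H2-Aa, the alpha chain of I-A, on the minus strand (chr17:34287774-34288073).
H2-Eb1: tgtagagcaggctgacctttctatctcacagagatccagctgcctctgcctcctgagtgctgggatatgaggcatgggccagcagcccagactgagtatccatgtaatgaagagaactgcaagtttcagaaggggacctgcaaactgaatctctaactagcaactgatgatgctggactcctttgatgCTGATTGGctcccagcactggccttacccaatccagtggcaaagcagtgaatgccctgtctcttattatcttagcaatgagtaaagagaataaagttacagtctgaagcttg
H2-Aa: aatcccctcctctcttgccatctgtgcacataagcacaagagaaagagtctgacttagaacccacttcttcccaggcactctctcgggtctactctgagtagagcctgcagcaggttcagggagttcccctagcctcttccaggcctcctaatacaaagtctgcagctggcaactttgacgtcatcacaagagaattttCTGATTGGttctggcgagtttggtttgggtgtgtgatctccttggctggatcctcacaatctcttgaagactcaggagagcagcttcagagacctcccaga
The motif begins 62 bases before the start in H2-Eb1 and 51 before it in H2-Aa. Searched on both strands, it was found in 1346 of 32851 promoter windows of this length (4.1%).

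The I-A chains and CD74 did not show the separation seen for H2-Eb1. H2-Aa and H2-Ab1, the chains of I-A, were chosen after their values were seen. Levels of H2-Aa were 285, 602, 599 and 552 CPM with Mif and 397, 94.7, 163 and 372 CPM without it. H2-Ab1 stood at 946, 688, 768 and 788 CPM in the arteries with Mif and at 1567, 196, 509.6 and 947 CPM in those without. Cd74 was at 124, 606, 223 and 269 CPM in the Apoe-/- libraries and at 336, 135, 132 and 129 CPM in those without Mif. For all 3 genes the genotypes overlapped, with log2 differences of -0.99 ± 0.76 (SE), 0.01 ± 0.63 (SE) and -0.74 ± 0.79 (SE). The sign for H2-Ab1 was negative with library totals and under 4 other settings. H2-DMb1, part of the molecule that loads peptides onto class II, was high in Apoe-/-Mif-/- libraries 2 and 4. Levels of H2-DMb1 were 10.5, 87.2, 83.7 and 7.67 CPM with Mif and 11.3, 478, 33 and 494 CPM without it. Of the 9 class II genes listed, 7 were tested, of which 3 were higher and 4 lower without Mif, 1 with all 4 values lower, against 1.03% of all genes tested. Their median log2 difference was -0.57 against 0.09 over all genes. It turned to 0.08 without Apoe-/- library 2.

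Genes of lipid-laden macrophages were mostly lower without Mif. Of the 19 listed, all were tested, 14 had lower and 5 higher estimates, and 3 (Plin2, Fabp5 and Lgals3) had all 4 values lower, as 1.03% of all genes tested did. The list was chosen with earlier results of these data known, so setting these shares side by side is no test. The median log2 difference was -0.90 and was negative under every setting tried, but it was -0.05 without Apoe-/- library 2. No member passed the edgeR test or was called by DESeq2.

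Plin2 stood at 860.0, 2114, 1269 and 2173 CPM in the arteries with Mif and at 79.6, 599, 468 and 492 CPM in those without. Plin2 encodes the protein that coats lipid droplets in foam cells. Its highest level without Mif was below its lowest level with Mif, and the mean was 3.92-fold lower (log2 difference -1.97 ± 0.69 (SE), edgeR adjusted p = 0.179). Fabp5 was at 925, 956, 859.7 and 457 CPM in the Apoe-/- libraries and at 127, 279, 228 and 126 CPM in those without Mif. Fabp5 encodes a fatty acid binding protein of macrophages and adipocytes, and its mean was 4.21-fold lower (log2 difference -2.08 ± 0.74 (SE), edgeR adjusted p = 0.18). Levels of Lgals3 were 4953, 11144, 5124 and 7824 CPM with Mif and 3399, 3876, 3338 and 2987 CPM without it. Lgals3 encodes galectin-3, an abundant lectin of plaque macrophages. The 4 libraries without Mif lay close together for this gene, and the mean was 2.14-fold lower (log2 difference -1.09 ± 0.54 (SE), edgeR adjusted p = 0.289).

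Abca1, Soat1 and Spp1 did not share one pattern. Abca1 stood at 14.8, 231, 172 and 150.0 CPM in the arteries with Mif and at 5.14, 37.6, 41.4 and 1.29 CPM in those without. Abca1 encodes a transporter that exports cholesterol, and the shallow Apoe-/- library 1 overlapped the libraries without Mif. Soat1 was at 4.22, 24.8, 11.2 and 8.37 CPM in the Apoe-/- libraries and at 70.4, 518, 57.5 and 44.7 CPM in those without Mif. Soat1 encodes the enzyme that esterifies cholesterol for storage in droplets. It was higher in all 4 libraries without Mif, and library 2 was well above the other 3 (log2 difference 3.80 ± 1.33 (SE), edgeR adjusted p = 0.179, DESeq2 adjusted p = 0.00237). Spp1, osteopontin, ran at high levels in both genotypes. Levels of Spp1 were 18929.5, 12929, 14228 and 9642 CPM with Mif and 17264, 11843, 16811 and 23919 CPM without it. Its log2 difference was 0.33 ± 0.47 (SE).

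General macrophage markers had mostly lower estimates without Mif. Whether they differed less than the genes of lipid-laden macrophages was not tested. Of 16 tested, 11 had lower and 5 higher estimates, none had separated genotypes, and none had an unadjusted p under 0.05. The median log2 difference was -0.71. The 2 with the smallest p were Aif1, a cytoskeletal protein of macrophages, and C1qa, a chain of the complement protein C1q. Aif1 stood at 35.8, 329, 143 and 112 CPM in the arteries with Mif and at 7.71, 26.5, 106 and 3.87 CPM in those without. C1qa was at 2205, 2905, 2289 and 1673 CPM in the Apoe-/- libraries and at 933, 890.0, 2466 and 669.6 CPM in those without Mif. For both genes Apoe-/-Mif-/- library 3 fell among the Apoe-/- libraries and the other 3 lay below them. The summed level of the 16 markers ran from 15684 to 39999 CPM with Mif and from 11778 to 36219 CPM without it, so the totals overlapped.

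Mmp12, the macrophage elastase that degrades elastic fibres, also had all 4 values lower. Levels of Mmp12 were 1140.3, 2635, 866 and 1131 CPM with Mif and 615, 781, 563 and 209 CPM without it. Its log2 difference was -1.41 ± 0.71 (SE) (edgeR adjusted p = 0.296), and an opposite-strand gene, Mmp1b, shares exon sequence with it, so the reads of the 2 cannot be told apart without strand. Atp6v1b2, a subunit of the lysosomal proton pump, was likewise lower in every library. Atp6v1b2 stood at 411, 1033, 463 and 470.1 CPM in the arteries with Mif and at 199.8, 319, 401 and 15.5 CPM in those without. The closest pair, Apoe-/- library 1 and Apoe-/-Mif-/- library 3, differed little. Its log2 difference was -1.35 ± 0.87 (SE) (edgeR adjusted p = 0.416), and 13 of 21 lysosomal genes tested had lower estimates, with a median of -0.38.

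Chemokine genes had 11 lower and 6 higher estimates among 17 tested of 25 listed, with a median log2 difference of -0.86. 3 had an unadjusted p under 0.05 in the lower direction, where 7.99% of all genes tested had one, and 1 had all 4 values lower, as 1.03% of all genes did. Ccl19 was at 10.5, 20.4, 48.1 and 46 CPM in the Apoe-/- libraries and at 2.57, 1.39, 5.51 and 0.86 CPM in those without Mif. Ccl19 encodes a ligand of CCR7 that guides T cells and dendritic cells, and it was the member whose genotypes did not overlap. Levels of Ccl3 were 2.11, 20.4, 56.1 and 111 CPM with Mif and 1.03, 0, 7.42 and 0.86 CPM without it. Ccl3, a chemokine of activated macrophages, was low in all 4 libraries without Mif, but Apoe-/- library 1 was in their range. Levels of Ccl19 without Mif rested on 1 to 23 counts per library.

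Hcls1 and Plcl2, signalling genes of haematopoietic cells, were among the ranked genes that were lower. Hcls1 stood at 188, 209, 153 and 195 CPM in the arteries with Mif and at 6.16, 6.96, 47.9 and 3.01 CPM in those without. Hcls1 encodes a cortactin-like protein that links receptors to actin, and its 4 Apoe-/- levels were close to each other while library 3 was the highest of those without Mif (log2 difference -3.52 ± 1.18 (SE), DESeq2 adjusted p = 0.000915). Plcl2 was at 149.6, 76.8, 136 and 8.37 CPM in the Apoe-/- libraries and at 6.16, 4.18, 2.16 and 1.29 CPM in those without Mif. Plcl2 encodes a phospholipase C-like protein of immune cells, and its lowest Apoe-/- level was in library 4. Trac, the constant segment of the T cell receptor alpha chain, was high in 1 library only. Levels of Trac were 2.11, 209.8, 7.28 and 4.88 CPM with Mif and 0.514, 0, 0.718 and 1.29 CPM without it. Apoe-/- library 2 carried most of the Trac signal. Of the 11 T and NK cell genes tested, 5 were higher and 6 lower without Mif. The summed level of the 16 listed ran from 75.1 to 729 CPM with Mif and from 58.5 to 819 CPM without it. The highest sum was in Apoe-/-Mif-/- library 2.

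The remaining ranked genes that were lower have diverse functions. Smarca4 stood at 101, 1091, 258 and 449.9 CPM in the arteries with Mif and at 30.3, 19.5, 57.5 and 75.3 CPM in those without. Smarca4 encodes the ATPase of the SWI/SNF chromatin remodelling complexes, and its mean was 10.4-fold lower (log2 difference -3.38 ± 0.97 (SE), edgeR adjusted p = 0.176). Hsd17b4 was at 40, 350.4, 92.8 and 329 CPM in the Apoe-/- libraries and at 6.68, 6.96, 11.5 and 22.8 CPM in those without Mif. Hsd17b4 encodes an enzyme of peroxisomal beta-oxidation, and its 2 highest levels were in Apoe-/- libraries 2 and 4. Levels of Wfdc1 were 84.3, 693, 581 and 94.9 CPM with Mif and 27.2, 15.3, 51.7 and 25.4 CPM without it. Wfdc1 encodes a secreted protease inhibitor of the whey acidic protein family, and Apoe-/- libraries 2 and 3 were the highest. B4galt5 stood at 120.1, 248, 119 and 76.7 CPM in the arteries with Mif and at 5.65, 5.57, 21.1 and 2.58 CPM in those without. B4galt5 encodes the enzyme that makes lactosylceramide, and its mean was 16.2-fold lower (log2 difference -3.99 ± 1.30 (SE), DESeq2 adjusted p = 0.00118).

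Zfp383, Cystm1, Dtx4 and Gskip completed this group. Cystm1 was at 112, 133, 33.8 and 176 CPM in the Apoe-/- libraries and at 2.05, 8.36, 3.11 and 2.15 CPM in those without Mif. Levels of Dtx4 were 99.1, 207, 24.9 and 409 CPM with Mif and 6.68, 18.1, 17 and 3.44 CPM without it. Dtx4 encodes a ubiquitin ligase of the Deltex family. Zfp383, a zinc finger gene, ran from 10.9 to 116 CPM with Mif and had 1 or 2 counts in each library without it. Gskip, which encodes a binding partner of the kinase GSK3, ran from 14.8 to 32.1 CPM with Mif and had 0 to 3 counts in each library without it. Gskip shares exon sequence with the opposite-strand gene Atg2b. Ndrg1, a gene induced by low oxygen, was also lower in all 4. Ndrg1 stood at 202, 95.1, 237 and 317 CPM in the arteries with Mif and at 58, 15.3, 66.3 and 32.3 CPM in those without. It overlaps 2 opposite-strand transcripts, and its log2 difference was -2.30 ± 1.08 (SE) (edgeR adjusted p = 0.268).

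The gene with the smallest p among the ranked genes that were higher without Mif was Axin1, the scaffold of the complex that degrades beta-catenin in Wnt signalling. Axin1 was at 0, 0.591, 1.56 and 4.88 CPM in the Apoe-/- libraries and at 157, 348, 96.3 and 14.6 CPM in those without Mif. With Mif it rested on 0 to 7 counts per library, and without Mif on 34 to 402 (log2 difference 6.35 ± 1.52 (SE), edgeR adjusted p = 0.176, DESeq2 adjusted p = 7.51e-06). Levels of Ddx41 were 12.6, 14.2, 35.9 and 10.5 CPM with Mif and 460.3, 69.6, 323 and 469 CPM without it. Ddx41 encodes an RNA helicase that also senses cytosolic DNA, and its mean was 18.1-fold higher (log2 difference 4.16 ± 1.11 (SE), edgeR adjusted p = 0.176). An antisense transcript overlaps Ddx41.

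Hgs, Cul1, Trim2 and Bap1 were also in this group. Hgs stood at 2.11, 2.07, 17.9 and 11.2 CPM in the arteries with Mif and at 148, 96.1, 81.2 and 337 CPM in those without. Hgs encodes a subunit of the complex that sorts ubiquitinated receptors on endosomes. Cul1 was at 10.5, 34.6, 5.72 and 23.7 CPM in the Apoe-/- libraries and at 286, 149, 39.3 and 256 CPM in those without Mif. Cul1 encodes the scaffold of SCF ubiquitin ligases. Levels of Trim2 were 6.32, 0.591, 3.64 and 2.79 CPM with Mif and 215, 135, 12.5 and 52 CPM without it. Trim2 encodes a ubiquitin ligase known from neurons, and its 4 levels without Mif ranged widely. Bap1 stood at 4.22, 0.886, 6.24 and 4.19 CPM in the arteries with Mif and at 177, 97.5, 46.2 and 27.5 CPM in those without. Bap1 encodes a deubiquitinase that acts on histone H2A. The log2 differences of the 4 genes were 4.28 ± 1.36 (SE), 3.28 ± 1.19 (SE), 5.02 ± 1.55 (SE) and 4.48 ± 1.49 (SE), none past the edgeR threshold. Cul1 overlaps an opposite-strand pseudogene.

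Others were Vasp, Trabd, Gys1, Pam16 and Eci2. Vasp was at 2.11, 2.07, 16.4 and 14 CPM in the Apoe-/- libraries and at 304, 47.4, 79.3 and 217 CPM in those without Mif. Vasp encodes a protein that extends actin filaments, and its mean was 18.8-fold higher. Levels of Gys1 were 4.22, 0.886, 0.78 and 2.09 CPM with Mif and 53.4, 27.9, 40.5 and 79.6 CPM without it. Gys1 encodes muscle glycogen synthase. Eci2 stood at 14.8, 1.77, 27.5 and 25.1 CPM in the arteries with Mif and at 274, 44.6, 91 and 283 CPM in those without. Eci2 encodes an enoyl-CoA isomerase of fatty acid oxidation. Pam16 was at 0, 0.591, 12 and 2.09 CPM in the Apoe-/- libraries and at 78.1, 80.8, 20.8 and 112 CPM in those without Mif. Pam16 encodes a part of the mitochondrial protein import motor. Levels of Trabd were 4.22, 21.3, 28.3 and 9.77 CPM with Mif and 389, 52.9, 142 and 447 CPM without it. For Trabd, Apoe-/-Mif-/- libraries 1 and 4 were the highest, and for Eci2 too. Gys1, Pam16 and Eci2 share exon sequence with opposite-strand genes (Ruvbl2, Glis2 and Gm16984), so their reads cannot be told apart.

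Among the listed pathways, further genes had all 4 values higher, as 1.17% of all genes tested did. That separation is why they are named and is no finding about them or their pathways. Atp5b stood at 289, 457, 477 and 257 CPM in the arteries with Mif and at 1292, 2237, 509.6 and 1354 CPM in those without. Atp5b encodes the catalytic subunit of ATP synthase, and its closest pair was Apoe-/- library 3 and Apoe-/-Mif-/- library 3. Blvrb was at 139, 80.7, 209 and 50.9 CPM in the Apoe-/- libraries and at 643, 1178, 236 and 352 CPM in those without Mif. Blvrb encodes a reductase of haem breakdown, and its log2 difference was 2.33 ± 0.87 (SE) (edgeR adjusted p = 0.189, DESeq2 adjusted p = 0.00987). Levels of Hk2 were 4.22, 9.75, 1.56 and 5.58 CPM with Mif and 143, 51.5, 21.6 and 118 CPM without it. Hk2 encodes a hexokinase that starts glycolysis, and its mean was 15.9-fold higher. Kdm6b stood at 2.11, 2.66, 1.3 and 2.09 CPM in the arteries with Mif and at 26.2, 1333, 6.7 and 18.9 CPM in those without. Kdm6b encodes a demethylase of histone H3, library 2 carried nearly all of its signal, and an antisense transcript overlaps it. Elovl6 was at 0, 0, 2.6 and 0.698 CPM in the Apoe-/- libraries and at 11.3, 12.5, 35.2 and 26.2 CPM in those without Mif. Elovl6 encodes an enzyme that lengthens fatty acids, and with Mif it had 0 to 10 counts per library. Lss, of cholesterol synthesis, and Asns, asparagine synthetase, had 336 and 36 counts in library 3 without Mif and 1 to 5 counts in the other 3, against 0 to 2 with Mif.

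Genes of cartilage and bone and of the plaque matrix were higher without Mif in some of the arteries. Of 14 osteochondrogenic genes tested of 16 listed, 12 had higher and 2 lower estimates, with a median log2 difference of 1.59, and 4 had an unadjusted p under 0.05 in the higher direction, against 9.26% of all genes tested. No member had separated genotypes. Without Apoe-/-Mif-/- library 1 the median was 0.04. The summed level of the 16 listed genes was 30444 CPM in that library, 2443, 10892 and 10870 CPM in the other 3 without Mif, and 5453 to 13130 CPM with Mif.

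Levels of Ibsp were 19, 82.1, 19.8 and 28.6 CPM with Mif and 1616, 52.9, 206 and 506 CPM without it. Ibsp encodes bone sialoprotein, a matrix protein of mineralising tissue. Libraries 1, 3 and 4 without Mif were above all Apoe-/- levels and library 2 was within them (log2 difference 3.98 ± 1.41 (SE), edgeR adjusted p = 0.18, DESeq2 adjusted p = 0.0311). Tnfrsf11b stood at 6.32, 17.7, 5.98 and 14 CPM in the arteries with Mif and at 278, 16.7, 97.5 and 209 CPM in those without. Tnfrsf11b encodes osteoprotegerin, the decoy receptor that restrains bone resorption, and it showed the same order of libraries (log2 difference 3.75 ± 1.30 (SE), edgeR adjusted p = 0.176, DESeq2 adjusted p = 0.00609). Acan and Col2a1, aggrecan and the collagen of cartilage, were chosen after their values were seen. Acan was at 8.43, 3.84, 20.8 and 48.1 CPM in the Apoe-/- libraries and at 554, 16.7, 84 and 17.2 CPM in those without Mif. Levels of Col2a1 were 61.1, 4.14, 19.5 and 13.3 CPM with Mif and 836, 78, 1.2 and 240.4 CPM without it. Both were highest in library 1 without Mif, and for Col2a1 library 3 was below every Apoe-/- library.

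Among the 15 tested genes of proteoglycans and plaque matrix, 11 had higher and 4 lower estimates, with a median log2 difference of 0.69. 6 had an unadjusted p under 0.05, all higher, against 9.26% of all genes tested in that direction. Prg4 stood at 177, 107, 165 and 191 CPM in the arteries with Mif and at 1311, 109, 1724 and 8941 CPM in those without. Prg4 encodes lubricin, the lubricating glycoprotein of joint surfaces. The 4 Apoe-/- levels were alike, while libraries 1, 3 and 4 without Mif were well above them and library 2 lay among them. The mean was 18.9-fold higher (log2 difference 4.24 ± 0.94 (SE), edgeR adjusted p = 0.176, DESeq2 adjusted p = 0.00224), and Prg4 shares exon sequence with the opposite-strand gene Tpr. Of the 8 listed markers of mesothelium and synovial lining, Prg4 among them, 3 passed the filter on low counts, and Msln, mesothelin, did not. In a fit of only the 8 libraries Prg4 was called higher (edgeR adjusted p = 0.00637), and it was the 1 gene called without Apoe-/-Mif-/- library 2 (edgeR adjusted p = 0.0404). Aspn, a small leucine-rich proteoglycan, had 1 count in all with Mif and 2, 3, 0 and 98 counts without it. Dcn was at 1714, 1023, 1553 and 2137 CPM in the Apoe-/- libraries and at 4323, 734, 2144 and 13375 CPM in those without Mif. Levels of Fn1 were 3233, 8136, 5393 and 9461 CPM with Mif and 20841, 1657, 7076 and 34295 CPM without it. For Dcn and Fn1, decorin and fibronectin, libraries 1 and 4 without Mif were the highest and library 2 the lowest of all 8.

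Matrix-degrading enzymes had estimates in both directions. Mmp3 stood at 1089.7, 506, 1217 and 376 CPM in the arteries with Mif and at 664, 1961, 2198 and 3506 CPM in those without. Mmp13 was at 133, 31.6, 52 and 45.3 CPM in the Apoe-/- libraries and at 367, 107, 983 and 109 CPM in those without Mif. Mmp3 and Mmp13 encode stromelysin and collagenase, which had higher estimates without Mif (log2 difference 1.39 ± 0.64 (SE) and 2.59 ± 1.09 (SE)), whereas Mmp12 had a lower one. In both genes 1 library without Mif or more lay within the Apoe-/- range. Of 11 metalloproteinases and inhibitors tested, 9 had higher and 2 lower estimates, with a median of 0.29.

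**Figure D2:**
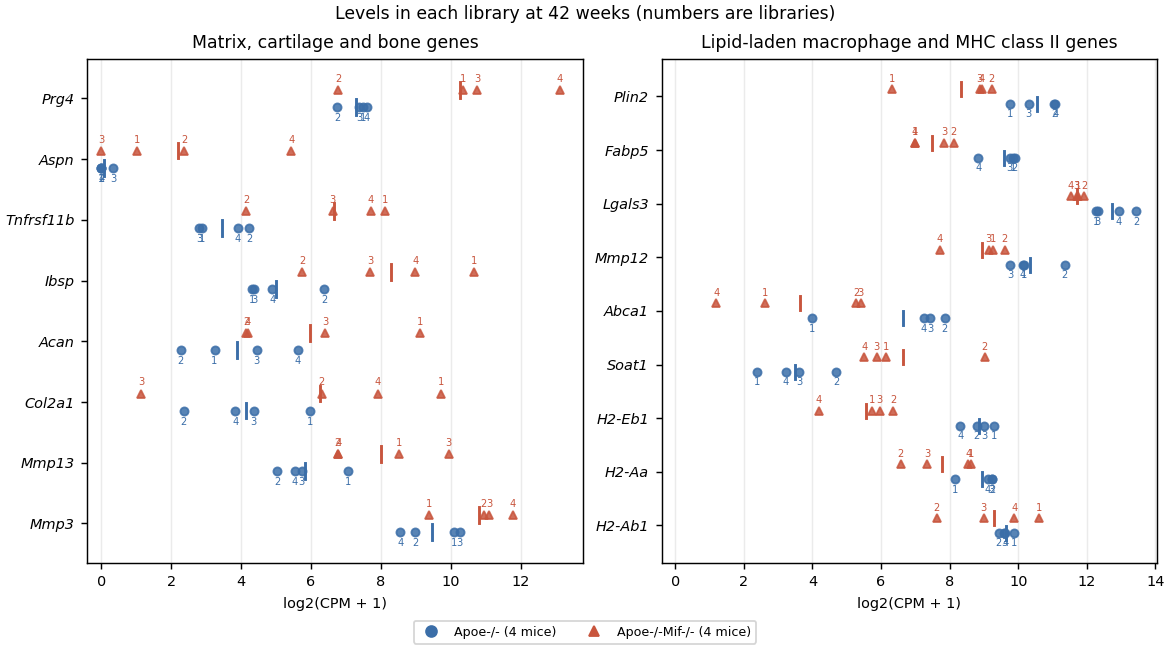
Level of single genes on the x axis as log2(CPM + 1) in each library at 42 weeks, with the library numbers beside the points and short bars at the genotype means. Prg4 lies between 107 and 191 CPM in all 4 Apoe-/- libraries and at or above 1311 CPM in libraries 1, 3 and 4 without Mif, and Plin2, Fabp5, Lgals3 and H2-Eb1 are lower in all 4 libraries without Mif.

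Structural genes of the vessel wall showed no common direction. Of 15 contractile smooth muscle genes tested, 8 had higher and 7 lower estimates, with a median of 0.16. Levels of Actg2 were 0, 295, 166 and 8.37 CPM with Mif and 27.7, 12.5, 25.4 and 3.01 CPM without it. Des stood at 4.22, 3.84, 2.86 and 13.3 CPM in the arteries with Mif and at 23.1, 26.5, 5.03 and 88.2 CPM in those without. Actg2 and Des encode smooth muscle gamma-actin and desmin, the 2 members with the smallest p, and Des overlaps an antisense transcript. Collagen genes had 9 higher and 6 lower estimates of 15, with a median of 0.05. Col6a3 was at 229.7, 1150.3, 502 and 1272 CPM in the Apoe-/- libraries and at 89.4, 48.7, 596 and 386 CPM in those without Mif. Levels of Col6a2 were 1661, 2396, 962 and 2591 CPM with Mif and 568, 145, 1049.5 and 1592 CPM without it. These chains of collagen VI, the 2 with the smallest p, were lower without Mif on average, and the genotypes overlapped.

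Endothelial genes had estimates in both directions. Of 17 tested, 8 had higher and 9 lower estimates, with a median of -0.10 that became 0.53 with size factors. Vwf stood at 868, 1036, 721 and 54.4 CPM in the arteries with Mif and at 29.3, 131, 78.8 and 15.5 CPM in those without. Vwf encodes von Willebrand factor, the clotting glycoprotein of endothelium, and Apoe-/- libraries 1 to 3 were above every library without Mif while library 4 was among them (log2 difference -3.40 ± 1.01 (SE), edgeR adjusted p = 0.176, DESeq2 adjusted p = 0.0161). Kdr was at 4.22, 1.48, 25.7 and 9.07 CPM in the Apoe-/- libraries and at 711, 11.1, 0.958 and 633 CPM in those without Mif. Kdr encodes the main receptor for vascular endothelial growth factor, and it was high in Apoe-/-Mif-/- libraries 1 and 4 alone (log2 difference 5.03 ± 1.66 (SE), edgeR adjusted p = 0.176, DESeq2 adjusted p = 0.00767).

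Transcripts of the mitochondrial genome took 1.57% to 3.55% of the counts of Apoe-/- libraries and 1.94% to 8.64% of those without Mif. All 11 mitochondrially encoded genes tested had higher estimates without Mif, with a median log2 difference of 1.55, and 5 had an unadjusted p under 0.05, against 9.26% of all genes tested in the higher direction. Levels of mt-Co1 were 7567, 7475, 5622 and 15544 CPM with Mif and 32381, 31294, 5559 and 42979 CPM without it. mt-Cytb stood at 7834, 6974, 5494 and 14634 CPM in the arteries with Mif and at 29829.7, 32276, 5644 and 46121 CPM in those without. These subunits of the respiratory chain were higher in libraries 1, 2 and 4 without Mif than in any Apoe-/- library, and library 3 was close to the lowest Apoe-/- level. In a fit of only the 8 libraries both were called higher (edgeR adjusted p = 0.0329 for mt-Co1 and 0.0248 for mt-Cytb). Of 24 nuclear genes of oxidative phosphorylation tested, 17 had higher and 7 lower estimates, with a median of 0.52 that was negative with voom, with the mitochondrial share as a covariate and without the 2 shallow libraries.

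Markers of fat ran with particular libraries. White adipocyte genes had 11 higher and 5 lower estimates of 16 tested, and brown adipocyte genes 7 higher and 2 lower of 9, with medians of 1.54 and 2.80. Sums here and below include the listed genes under the filter on low counts. The summed white adipocyte level was 1045, 1187, 15234 and 9188 CPM with Mif and 16057, 34654, 648 and 9664 CPM without it. The brown adipocyte sum was 158 to 499 CPM with Mif and 284, 5339, 74.5 and 2655 CPM without it. Libraries 2 and 4 without Mif thus held most brown fat signal, while library 3 held the least fat signal of all 8. The summed level of the mitochondrially encoded genes was 22384, 20688, 15786 and 44376 CPM with Mif and 85716, 92832, 15934 and 120913 CPM without it. Library 3 without Mif was low in all 3 sums and libraries 2 and 4 were high in the brown adipocyte and mitochondrial sums, but library 1 without Mif had a high mitochondrial sum with a brown adipocyte sum inside the Apoe-/- range, and Apoe-/- library 3 had the lowest mitochondrial sum with the highest white adipocyte sum of its genotype. The part of fat in the mitochondrial differences was not tested.

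Ucp1 was at 23.2, 12.1, 15.1 and 30 CPM in the Apoe-/- libraries and at 21.1, 1279, 5.99 and 52.9 CPM in those without Mif. Ucp1 encodes the uncoupling protein that makes heat in brown fat, and library 2 without Mif was far above the other 7. Levels of Cox8b were 78, 54.4, 194 and 71.1 CPM with Mif and 161, 2907, 13.2 and 769.8 CPM without it. Cox8b, a cytochrome oxidase subunit of brown fat and muscle, was high in libraries 2 and 4. Plin1 stood at 6.32, 2.07, 78.5 and 4.88 CPM in the arteries with Mif and at 13.9, 458, 1.68 and 378 CPM in those without. Plin1, which coats the droplets of adipocytes, was high in the same libraries. Plin2, the droplet coat of foam cells, was lower in those 2 libraries than in any Apoe-/- library. Dgat2 was at 12.6, 6.8, 95.9 and 25.1 CPM in the Apoe-/- libraries and at 425, 862, 17.2 and 379.7 CPM in those without Mif. Dgat2 makes triglycerides, and library 3 without Mif was below 2 of the Apoe-/- libraries. Levels of Hadha were 25.3, 62.3, 91.7 and 26.5 CPM with Mif and 887, 248, 68.5 and 246 CPM without it. Hadha encodes a subunit of the mitochondrial beta-oxidation enzyme, and library 3 was the lowest without Mif. Plin4 stood at 75.9, 365, 178 and 439 CPM in the arteries with Mif and at 894, 2084, 69.7 and 579.7 CPM in those without. Plin4, another droplet coat of adipocytes, was lowest of all in library 3 without Mif. With the mitochondrial share as a covariate the estimates for Ucp1, Cox8b and Plin1 were negative, as were the medians of both fat lists.

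Red cell and skeletal muscle transcripts also differed by library. All 6 erythroid genes tested had lower estimates, with a median of -1.17. For the sum of the 9 listed, Apoe-/- library 2 alone had 20150 CPM against 548 to 6301 CPM in the other 7 libraries. Alas2 was at 4.22, 221, 0 and 41.2 CPM in the Apoe-/- libraries and at 2.57, 0, 0.718 and 0.86 CPM in those without Mif. Alas2 encodes the enzyme of red cell precursors that carries out the first step of haem synthesis, and it overlaps Apex2. Levels of Bpgm were 4.22, 61.8, 1.56 and 2.79 CPM with Mif and 2.05, 0, 0 and 1.72 CPM without it. Bpgm, a red cell enzyme, was likewise high in Apoe-/- library 2, and the erythroid median was 0.68 without that library. Ckm stood at 4.22, 2.36, 1.3 and 4.19 CPM in the arteries with Mif and at 157, 13.9, 2.87 and 5.59 CPM in those without. Ckm, the creatine kinase of skeletal muscle, was high in library 1 without Mif, and 7 of 8 fast skeletal muscle genes tested had higher estimates. The summed fast skeletal muscle level was 272, 259, 22.5 and 462 CPM without Mif and 25.7 to 144 CPM with it, so library 4 had the highest sum.

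**Figure D3:**
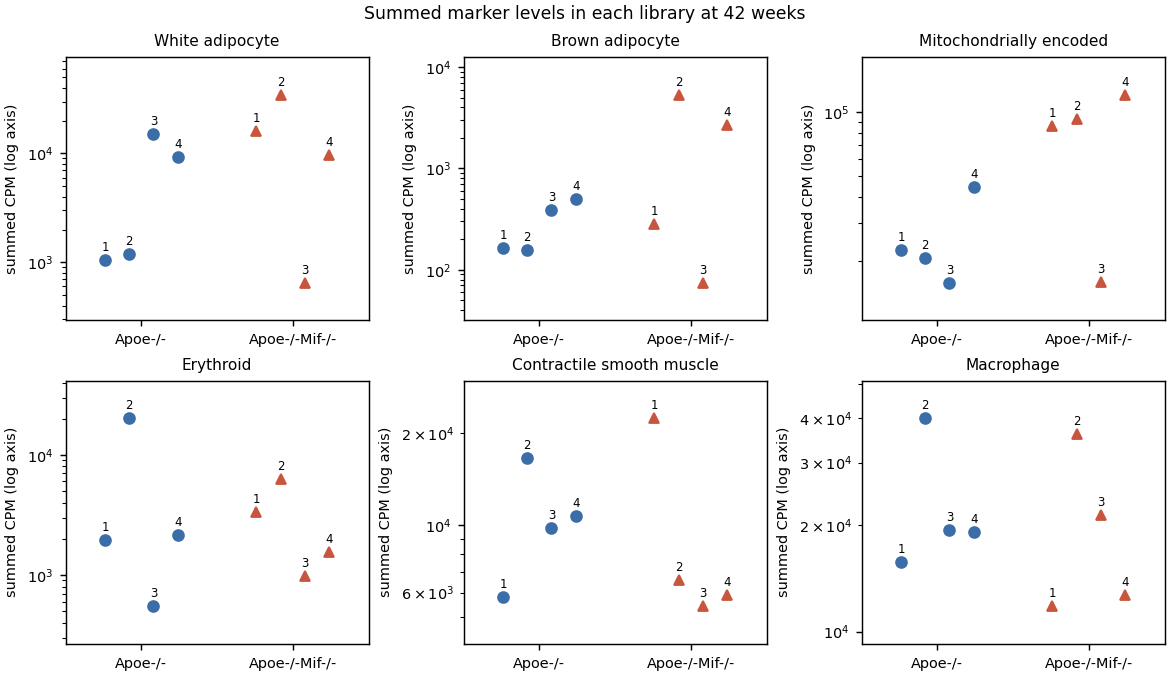
Summed CPM of the members of 6 marker lists, those under the filter on low counts included, on logarithmic axes, 1 point per library with its number, for the 4 Apoe-/- and the 4 Apoe-/-Mif-/- libraries at 42 weeks. The 2 genotypes overlap in every panel, and the brown adipocyte sum reaches 5339 CPM in library 2 without Mif against at most 499 CPM with Mif.

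Clock genes were described with 16 of 19 listed members tested, of which 11 had higher and 5 lower estimates, with a median of 0.92 that was 0.13 without Apoe-/-Mif-/- library 4. The labels give no time of day for the tissue. Nr1d1 was at 8.43, 4.43, 61.9 and 37.7 CPM in the Apoe-/- libraries and at 667, 71, 148 and 507 CPM in those without Mif. Nr1d1 encodes REV-ERB alpha, the nuclear receptor that represses Bmal1. It was the only member with all 4 values higher, against 1.17% of all genes tested, with a 12.4-fold higher mean (log2 difference 3.62 ± 1.15 (SE), edgeR adjusted p = 0.176, DESeq2 adjusted p = 0.00286). It shares exon sequence with the opposite-strand gene Thra. Levels of Hlf were 0, 0.886, 0 and 2.09 CPM with Mif and 1.54, 593, 0 and 120.0 CPM without it. Hlf, a clock-controlled transcription factor, was present in libraries 2 and 4 without Mif and at 0 to 3 counts in the other 6 libraries.

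**Figure D4:**
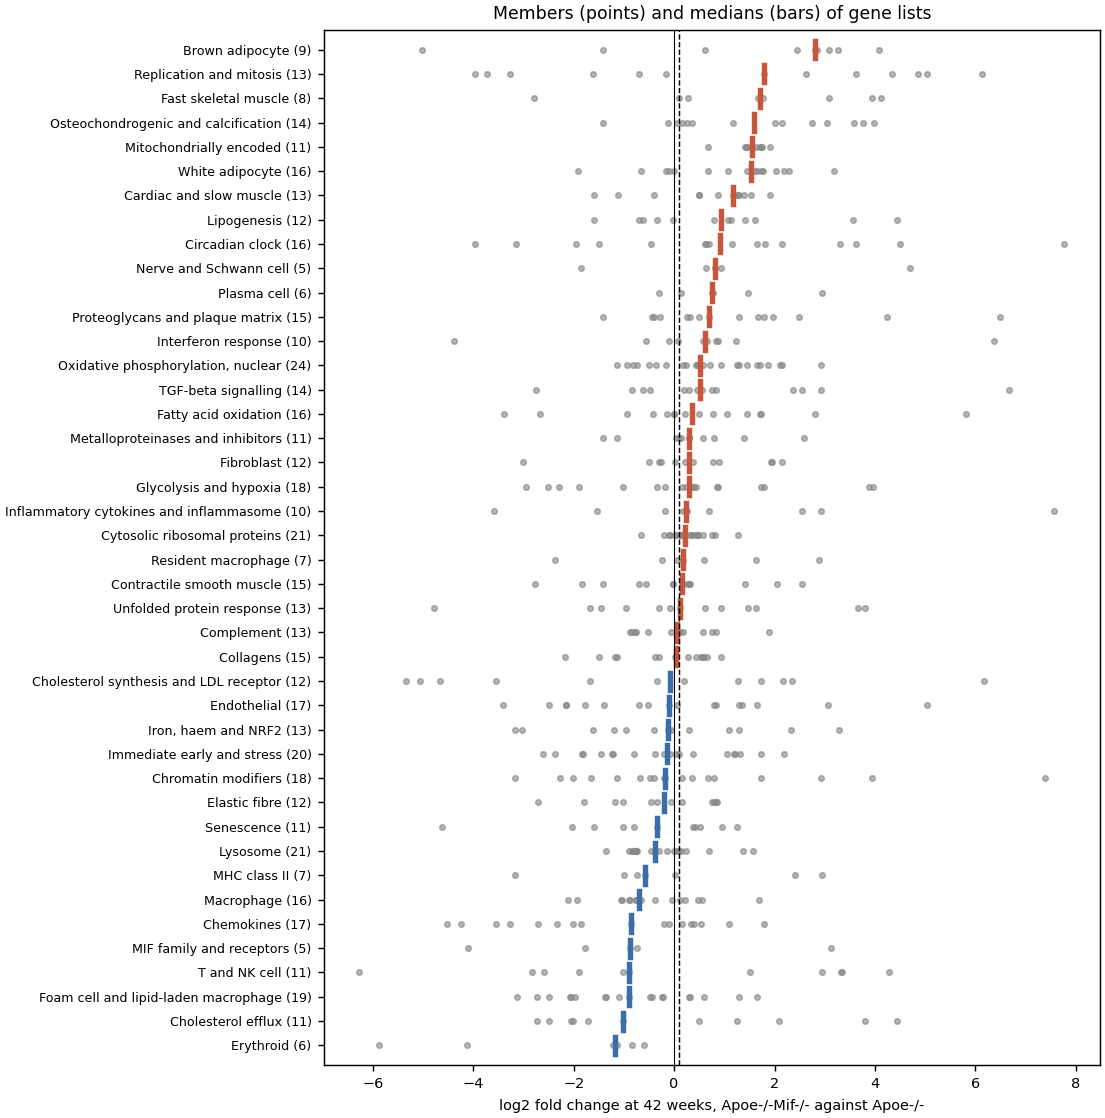
Log2 difference at 42 weeks (Apoe-/-Mif-/- against Apoe-/-) on the x axis for the tested members (points) and their median (bars) of each list with at least 5 tested genes, whose number stands in parentheses. The solid line marks 0 and the dashed line the median of all tested genes (0.09), and list medians run from -1.17 for erythroid genes to 2.80 for brown adipocyte genes.

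The last question was whether the effect of Mif deletion at 42 weeks differed from that at 24 weeks. The 24-week libraries of Apoe-/-Mif-/- mice lay in plate row C and all others in row B, so for the 24-week effect row and genotype cannot be told apart. edgeR called the difference of the 2 effects for 73 of 10634 genes (0.686%). In 62 the estimate was positive at 42 weeks and negative at 24 weeks, and in 11 it was the reverse. 42 of the 73 genes had over 50% of their CPM in 1 of the 16 libraries. The count was 0 without Apoe-/- library 1, 2 or 4 of the 42-week mice, 14 without library 3, and 48 to 124 without any 1 of the 4 Apoe-/-Mif-/- libraries.

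Ucp1, Plin1, Cox8b and Dgat2, genes of brown fat and of fat storage, were among the 62. At 24 weeks Ucp1 was at 3448, 5.74, 12.8 and 1181 CPM with Mif and 0, 16.8, 0.812 and 2.31 CPM without it. At 24 weeks the Ucp1 signal was in 2 Apoe-/- libraries, and at 42 weeks it was in library 2 without Mif. The difference between the effects was 11.89 on the log2 scale (edgeR adjusted p = 0.0136). At 24 weeks Plin1 was at 708, 1.01, 67.3 and 410.4 CPM with Mif and 0.655, 0.41, 0.203 and 0.463 CPM without it. At 24 weeks Cox8b was at 5679, 16, 102 and 1048 CPM with Mif and 36, 32, 87.3 and 115 CPM without it. At 24 weeks Dgat2 was at 2358, 2.7, 90.1 and 494 CPM with Mif and 5.24, 6.15, 27 and 17.6 CPM without it. Plin1, Cox8b and Dgat2 had the same pattern of high Apoe-/- libraries 1 and 4 at 24 weeks, with differences of 12.58, 7.93 and 9.27 (edgeR adjusted p = 0.0136, 0.0237 and 0.0176). Hlf and Kdr were also called, with differences of 14.85 and 9.64 (edgeR adjusted p = 0.0254 and 0.0432). At 24 weeks Kdr was at 528, 1.18, 3.81 and 22.5 CPM with Mif and 1.96, 15.2, 1.42 and 3.7 CPM without it. At 24 weeks Hlf was at 11.1, 0, 0.218 and 46 CPM with Mif and 0, 0.205, 0 and 0 CPM without it. In both genes Apoe-/- library 1 or 4 was the highest at 24 weeks.

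H2-Eb1 was called in the other direction, so its effect at 42 weeks lay below that at 24 weeks. At 24 weeks H2-Eb1 was at 134, 109.6, 261 and 366 CPM with Mif and 838, 288, 933 and 662 CPM without it. At 24 weeks its levels without Mif overlapped those with Mif and were mostly higher, whereas at 42 weeks all 4 were lower. The difference between the effects was -4.82 on the log2 scale (edgeR adjusted p = 0.0388). Over the 11 alternatives its estimate ran from -5.02 to -4.48, with an adjusted p of 0.000856 with DESeq2 and of 0.0347 to 0.101 with edgeR. The call was lost with size factors, without any 1 of the 4 Apoe-/- libraries, without Apoe-/-Mif-/- library 4, and without the 2 shallow libraries. Plin2, Fabp5 and Lgals3 had estimates of 0.02, 1.66 and 1.20 at 24 weeks, and Prg4 -0.44. Their differences between durations did not pass (edgeR adjusted p = 0.335, 0.077, 0.149 and 0.0603). Of the 10634 genes tested, 234 had separated genotypes at 42 weeks. Of these, 9 were separated in the opposite direction at 24 weeks and 3 in the same direction. Neither count was tested.

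**Figure D5:**
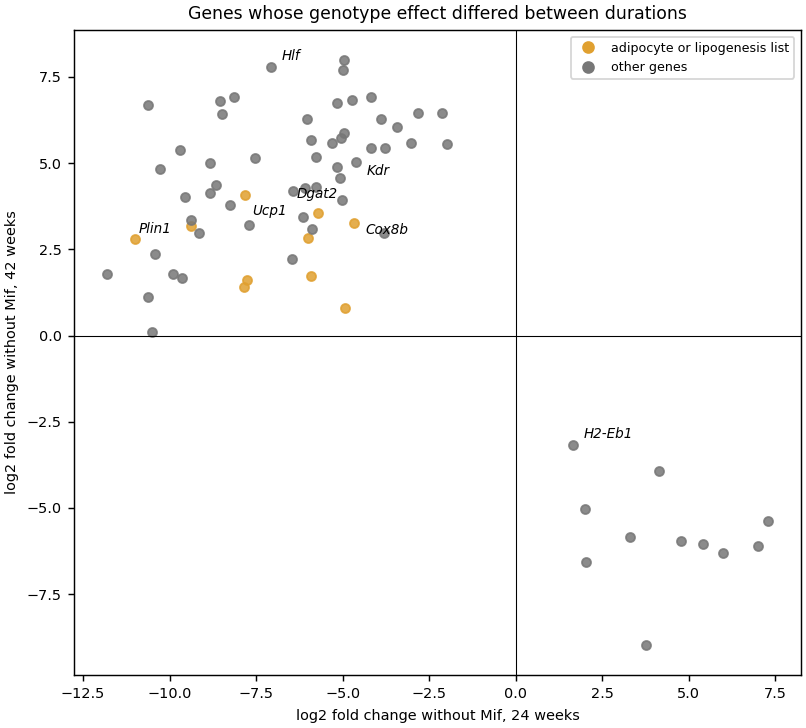
Log2 difference without Mif at 24 weeks (x axis) and at 42 weeks (y axis) for the 73 genes whose genotype effect differed between durations by the edgeR test, with genes of the adipocyte and lipogenesis lists in orange. 62 genes lie in the upper left part and 11, H2-Eb1 among them, in the lower right.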

How the data were processed

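RNA-seq was analysed from brachiocephalic artery sections of 16 mice in 4 groups of 4, of which the 8 libraries at 42 weeks are compared here. Groups came from the genotype and diet labels. Each library is a separate mouse by its label. The authors deposited whole-number counts per gene symbol in 1 table of 55359 rows. Per the submitters' processing notes, reads of 100 bp were handled with cutadapt 1.18, Trim Galore 0.6.4, FastQC 0.11.5 and STAR 2.5.2b, and build GRCm39 is named. Which program counted the reads, and with which annotation, is not given in the sources used here. A second deposited table held the authors' variance-stabilised values on a log2 scale for 9578 genes. 1 row without a gene name (at most 0.00257% of a library's counts) and the 2 reporters GFP and TDTOM did not enter the tests.

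The main test was edgeR 4.0.16 under R 4.3.3 (quasi-likelihood, TMM scaling, filterByExpr with a minimum count of 10 and total of 15, all 16 libraries in 1 fit with 12 residual degrees of freedom, Benjamini-Hochberg adjustment). The contrasts were Apoe-/-Mif-/- minus Apoe-/- at 42 weeks, and that difference minus the one at 24 weeks. A standard error is the log2 difference divided by the square root of the F statistic. Mif and Apoe were also compared by exact permutation of their CPM. Alternatives were DESeq2 1.42.0, limma 3.58.1 (voom, and the deposited log2 values), other scalings and filters, a robust prior, the mitochondrial share as a covariate, only the 8 libraries, each library left out, and, chosen after seeing the data, both shallow libraries left out. The scripts were tested on simulated data.

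Named genes were Mif and Apoe, the ranked genes (12 per direction, predicted genes left out), list members with separated genotypes, and, where a list had fewer than 2 of these, the 2 with the smallest p. Other named genes were chosen after their values were seen. 1 list member selected by this rule is not reported here. The members and the 47 gene lists were chosen with earlier results of these data known, and no list was tested as a set. Smart-seq2 marks no strand and has no molecular identifiers. Exon overlaps with opposite-strand genes came from the GENCODE annotation of mouse build GRCm38 and promoters from RefSeq of build GRCm38.p6, both older than the authors' build. Depth per library is given by its total count.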

Additional observations from a re-analysis of the deposited data

Results flagged for a closer look

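Of 160 sets of 4 values examined (78 genes, total counts and mitochondrial shares in both genotypes), 28 (17.5%) had 1 library whose level stood apart from the other 3 by more than Dixon's criterion at 95%. The rate of about 1 in 20 behind that criterion holds for normally distributed values. Here it was applied to CPM without logarithms, some resting on few counts, and to genes partly chosen from these data. The 17.5% therefore cannot be read as an excess over that rate. In Apoe-/- library 1 the lowest value stood apart for H2-Aa (285 CPM). In Apoe-/- library 2 the highest value stood apart for Atp6v1b2 (1033 CPM), Trac (209.8 CPM), Mmp12 (2635 CPM), Ibsp (82.1 CPM) and Bpgm (61.8 CPM). In Apoe-/- library 3 the highest value stood apart for Ddx41 (35.9 CPM), Aspn (0.26 CPM), Plin1 (78.5 CPM) and Cox8b (194 CPM). In Apoe-/- library 4 the highest value stood apart for Apoe (1127 CPM) and Des (13.3 CPM). In Apoe-/-Mif-/- library 1 the highest value stood apart for Acan (554 CPM), Ckm (157 CPM) and Cd74 (336 CPM). In Apoe-/-Mif-/- library 2 the highest value stood apart for Zfp383 (1.39 CPM), Cystm1 (8.36 CPM), Soat1 (518 CPM), Kdm6b (1333 CPM) and Ucp1 (1279 CPM). In Apoe-/-Mif-/- library 3 the highest value stood apart for Apoe (194 CPM), B4galt5 (21.1 CPM), Hcls1 (47.9 CPM), Lss (80.5 CPM), Asns (8.62 CPM), C1qa (2466 CPM) and Ccl3 (7.42 CPM). In Apoe-/-Mif-/- library 4 the highest value stood apart for Aspn (42.1 CPM).

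The effect of Mif deletion differed between 42 and 24 weeks for 7 of the genes named here, by edgeR's test of the difference itself. Over all 10634 genes tested, 73 were called (0.686%). Many named genes were chosen by their 42-week values, which also enter this difference, so their number is no finding about them. On the log2 scale the difference, 42 minus 24 weeks, was 11.89 for Ucp1 (adjusted p = 0.0136), 12.58 for Plin1 (adjusted p = 0.0136), 9.27 for Dgat2 (adjusted p = 0.0176), 7.93 for Cox8b (adjusted p = 0.0237), 14.85 for Hlf (adjusted p = 0.0254), -4.82 for H2-Eb1 (adjusted p = 0.0388) and 9.64 for Kdr (adjusted p = 0.0432). For genes with few counts in a group, such as Hlf and Plin1, the size of these estimates depends on the prior count. None of these calls remained without Apoe-/- library 1, 2 or 4 of the 42-week mice (adjusted p from 0.0514 to 0.0803). Those of H2-Eb1, Hlf and Kdr were also lost without library 3. Without library 1, 2 or 4 the estimates ran from 12.35 to 12.43 for Plin1 and from 11.77 to 12.29 for Ucp1. Plin1 stood at 14.998 without Apoe-/- library 3. Without Apoe-/-Mif-/- library 2 Ucp1 fell to 8.38 but stayed called (adjusted p = 0.0446). The calls of Cox8b (6.48, adjusted p = 0.0547) and Hlf (12.86, adjusted p = 0.0635) were lost without that library. Kdr was not called without Apoe-/-Mif-/- library 1 (adjusted p = 0.0611), nor H2-Eb1 without library 4 (adjusted p = 0.0527).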

How the results depend on the processing

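Mif deletion at 42 weeks gave 0 calls in either direction with TMM, size factors, library totals, a stricter filter, a robust prior, voom, the deposited log2 values, the mitochondrial covariate, or without both shallow libraries. Without any filter 120 genes were called higher and 30 lower (2143 and 1808 at an unadjusted p under 0.05). With only the 8 libraries there were 24 and 1 (480 and 299 unadjusted), and with DESeq2 545 and 380. Unadjusted counts were 289 higher and 294 lower with voom and 468 and 284 with the deposited log2 values. Leaving out 1 library gave 0 to 1 genes called higher (Prg4, without Apoe-/-Mif-/- library 2), 0 lower, and unadjusted counts of 992 to 1171 and 792 to 1119. Genes with all values higher numbered 221 to 352 and lower 222 to 378 when 1 library was left out, and 521 and 513 without both shallow libraries, where fewer values have to be separated. The count of genes whose effect differed between durations ran from 0 to 124 when 1 library was left out, and was 545 with DESeq2 and 0 without both shallow libraries. The cause of these shifts was not tested.

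When 1 library was left out, list medians ran from -1.12 to -0.054 for foam cell genes, -0.88 to -0.21 for macrophage genes, -0.95 to 0.081 for MHC class II, -1.71 to -0.23 for chemokines, 0.039 to 2.08 for osteochondrogenic genes, 0.57 to 1.16 for proteoglycans, -0.79 to 0.91 for endothelial genes, 0.73 to 1.92 for white and 1.25 to 3.20 for brown adipocyte genes, 0.12 to 0.90 for nuclear respiratory genes, 1.37 to 2.11 for mitochondrially encoded genes and 0.13 to 1.41 for clock genes. With the mitochondrial share as a covariate the medians were 0.27 for macrophage genes, 0.026 for MHC class II, -1.23 for endothelial, -1.25 for white and -0.77 for brown adipocyte genes, -0.73 for nuclear respiratory and -0.21 for mitochondrially encoded genes. With voom they were 0.42 for osteochondrogenic, 0.97 for brown and 0.20 for white adipocyte genes and -0.029 for nuclear respiratory genes. Without both shallow libraries they were 0.40 for white adipocyte and -0.038 for nuclear respiratory genes. The chemokine median was -0.18 with only the 8 libraries and -1.26 without both shallow ones.

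With that covariate the estimates were -0.50 for Plin1, -0.77 for Cox8b, -0.56 for Ucp1, -0.20 for mt-Cytb and -0.17 for mt-Co1, and the last 2 genes are part of the covariate, which takes up their own difference by construction. H2-Ab1 was at -0.36 with library totals, -0.16 with voom, and -0.15 with the deposited log2 values, and ran from -0.49 to 0.47 when 1 library was left out, below 0 without Apoe-/- library 3 or Apoe-/-Mif-/- library 1. No paired analysis was possible because the labels give no replicate numbers shared between genotypes. At 378066 counts, genes under 6.32 CPM in Apoe-/- library 1 rest on fewer than 3 counts.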

Other observations

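Further lists were described at 42 weeks. Cytosolic ribosomal protein genes had 17 higher and 4 lower estimates of 21 tested, with a median log2 difference of 0.21, which was 0.55 with size factors and 0.04 with library totals and negative with voom and without the 2 shallow libraries. Interferon response genes had 7 higher and 3 lower estimates of 10 tested, with a median of 0.62. Plasma cell genes had 5 higher and 1 lower of 6 tested. The summed level of the 13 listed ran from 365 to 1507 CPM with Mif and from 550.1 to 3319 CPM without it. Fibroblast genes had 8 higher and 4 lower estimates of 12 tested, with a median of 0.29. Genes of TGF-beta signalling, a pathway of matrix production, had 10 higher and 4 lower estimates of 14 tested, with a median of 0.51. Genes of replication and mitosis had 7 higher and 6 lower estimates of 13 tested, with a median of 1.79 that was negative with only the 8 libraries at 42 weeks and without Apoe-/-Mif-/- library 1 or 3. Elastic fibre genes had 5 higher and 7 lower estimates of 12 tested, with a median of -0.20 that was positive with the mitochondrial share as a covariate, without Apoe-/- library 2 or 4 and without Apoe-/-Mif-/- library 2. No member of these lists passed the edgeR test.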
